A study of Mus musculus with 20 samples.

Results

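A set of 10 genes, selected because an earlier look at these mice showed levels that were near all-or-none between genotypes, was followed through every mouse. They are the rows of the normalized matrix named Gm15880, Hddc3, Skint3, Tceanc2, 4931408C20Rik, 4930447K03Rik, Mid1, Bco2, Clec1a and Tspan8, which makes 10 of 24062 genes. Because the genotype contrast chose them, their own differences are given below as a description with no test.

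RNA was sequenced from microglia, the resident immune cells of the brain, of 20 male mice in 4 groups. These were 6 mThy1-α-synuclein (7H) and 4 wild-type (7W) mice at 7 months, and 5 mThy1-α-synuclein (10H) and 5 wild-type (10W) mice at 10 months. The mThy1-α-synuclein mice were hemizygous for human wild-type α-synuclein driven by the murine Thy-1 promoter, which is active mainly in neurons, and the transgene sits on the X chromosome. The labels give B6D2F1/J, a hybrid of C57BL/6J and DBA/2J, as the strain of both genotypes, and the study's methods describe the controls as wild-type littermates. Each library came from 1 mouse's whole brain after magnetic bead selection, for which the labels name IBA1 and the methods CD11b. The study processed the mice of each age together and normalized each age separately, so that age and processing cannot be told apart.

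The values, called normalized counts here, are reads per gene divided by 1 size factor per mouse. Between 33404096 and 77806399 reads per mouse were counted on genes. Thy1, whose promoter drives the transgene, had 392.5 to 1298 normalized counts in 7H and 17.7 to 47.6 in 7W, and 1117 to 1741 in 10H and 9.41 to 32.4 in 10W. Thy1 therefore placed every library on the side its label gives. The 10 microglial marker genes were abundant in every library, the lowest being Aif1 with at least 11738 normalized counts. At 10 months 4 of these 10 (Cx3cr1, Itgam, Sall1 and Siglech) were higher in 10H than in 10W mice, by 0.21 to 0.31 on the log2 scale at a limma adjusted p under 0.05, which 7.67% of all genes tested at that age reached. Their part in the members' values was not tested.

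Some background helps to read what follows. Mice of a C57BL/6 by DBA/2 cross can carry either parental version of a gene, and versions of genes that lie close together on a chromosome are usually inherited together. A sequence difference in or near a gene can alter its RNA level in cis, that is, only from the chromosome copy that carries it. Alleles were not called in these data, and the reads were mapped to the C57BL/6J reference. Whether the mice of each group differed in strain origin at any of these genes was not tested.

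The members are of several kinds. Skint3 belongs to the Skint family of butyrophilin-like membrane proteins known from skin and thymus, and Tceanc2 carries a domain shared with the transcription elongation factor S-II. Hddc3 encodes MESH1, a hydrolase of the bacterial alarmone ppGpp and of NADPH, and Gm15880 is annotated as an antisense transcript that lies within Crtc3 on the other strand. Mid1 is a microtubule-associated ubiquitin ligase that acts on protein phosphatase 2A, Bco2 a mitochondrial carotenoid-cleaving oxygenase, Clec1a a C-type lectin-like receptor and Tspan8 a tetraspanin of the cell surface. 4931408C20Rik is annotated as a protein-coding gene and 4930447K03Rik as a processed transcript.

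The 250 bases before the annotated start are shown for Skint3, 4931408C20Rik and 4930447K03Rik, which had mice at 0 reads, and for Gm15880, which had the widest gap at 10 months among the other members. None of these 4 windows holds an annotated exon. Capitals mark a CCAAT box on either strand. The sequences are RefSeq's, build GRCm38.p6, written 5′ to 3′ on the strand of the gene.
Gm15880 (chr7:80635767-80636016, plus strand): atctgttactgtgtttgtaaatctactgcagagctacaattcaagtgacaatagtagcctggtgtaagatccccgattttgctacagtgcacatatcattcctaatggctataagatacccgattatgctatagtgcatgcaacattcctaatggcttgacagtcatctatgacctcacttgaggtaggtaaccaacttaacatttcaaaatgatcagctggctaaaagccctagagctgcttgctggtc
Skint3 (chr4:112231995-112232244, plus strand): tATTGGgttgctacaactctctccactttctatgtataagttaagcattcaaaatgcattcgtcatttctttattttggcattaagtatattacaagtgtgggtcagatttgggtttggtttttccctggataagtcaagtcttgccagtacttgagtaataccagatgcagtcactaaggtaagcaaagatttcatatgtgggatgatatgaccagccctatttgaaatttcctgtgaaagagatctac
4931408C20Rik (chr1:26687461-26687710, minus strand): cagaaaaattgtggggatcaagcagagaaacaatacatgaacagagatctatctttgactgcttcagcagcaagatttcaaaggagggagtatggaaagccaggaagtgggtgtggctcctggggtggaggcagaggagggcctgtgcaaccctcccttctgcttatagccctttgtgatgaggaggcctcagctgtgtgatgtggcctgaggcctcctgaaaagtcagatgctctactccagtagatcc
4930447K03Rik (chr13:34113273-34113522, minus strand): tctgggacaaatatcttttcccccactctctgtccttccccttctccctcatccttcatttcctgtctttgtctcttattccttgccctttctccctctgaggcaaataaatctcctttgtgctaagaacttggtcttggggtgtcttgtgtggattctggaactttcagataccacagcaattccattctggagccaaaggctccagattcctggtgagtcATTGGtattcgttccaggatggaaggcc
These windows were low in CpG, with 2, 1, 0 and 1 CpG dinucleotides, and 41.2%, 36.8%, 51.2% and 47.2% G or C, against a median of 52.4% over 32851 promoter windows. The TATA box (TATAAA), the CCAAT box (CCAAT), the GC box (GGGCGG) and the core of PU.1 sites (GAGGAA) were searched on both strands. They occurred in 12.4%, 33.8%, 32.7% and 23.3% of all windows. CCAAT occurred in the Skint3 window, 249 to 245 bases before the start, and in the 4930447K03Rik window, 28 to 24 bases before the start, both times as ATTGG. None of the 4 motifs was found in the Gm15880 and 4931408C20Rik windows. Windows were given for 9 of the 10 members.

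The name on-off was checked against the values first. A member separated the genotypes where every mouse of one genotype lay above every mouse of the other. At 7 months, 3 of 10 members did so (4931408C20Rik, 4930447K03Rik and Clec1a), and over all genes tested the share was 7.53%. At 10 months, 9 of 10 did so, all but 4930447K03Rik, with a share of 7.27% over all genes. The members were chosen by this contrast, so nothing is read from these counts. With the further condition of an at least 4-fold difference of means on the log2(value + 1) scale, 2 members (4931408C20Rik and 4930447K03Rik) passed at 7 months and 5 (Gm15880, Skint3, Tceanc2, 4931408C20Rik and Tspan8) at 10 months. Genes of that kind made up 0.634% and 0.213% of all genes tested. Just inside that limit at 10 months was Tspan8, with a log2 difference of 2.10, and just outside it Hddc3, with 1.77. In both age groups, only 4931408C20Rik among the members met both conditions, and 0.0297% of the genes tested at both ages did so in the same direction. For the other members "near on-off" therefore describes 1 age or a graded difference. Skint3 did not pass the filter on low values at 7 months, and the other 9 members passed it at both ages.

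**Figure D1:**
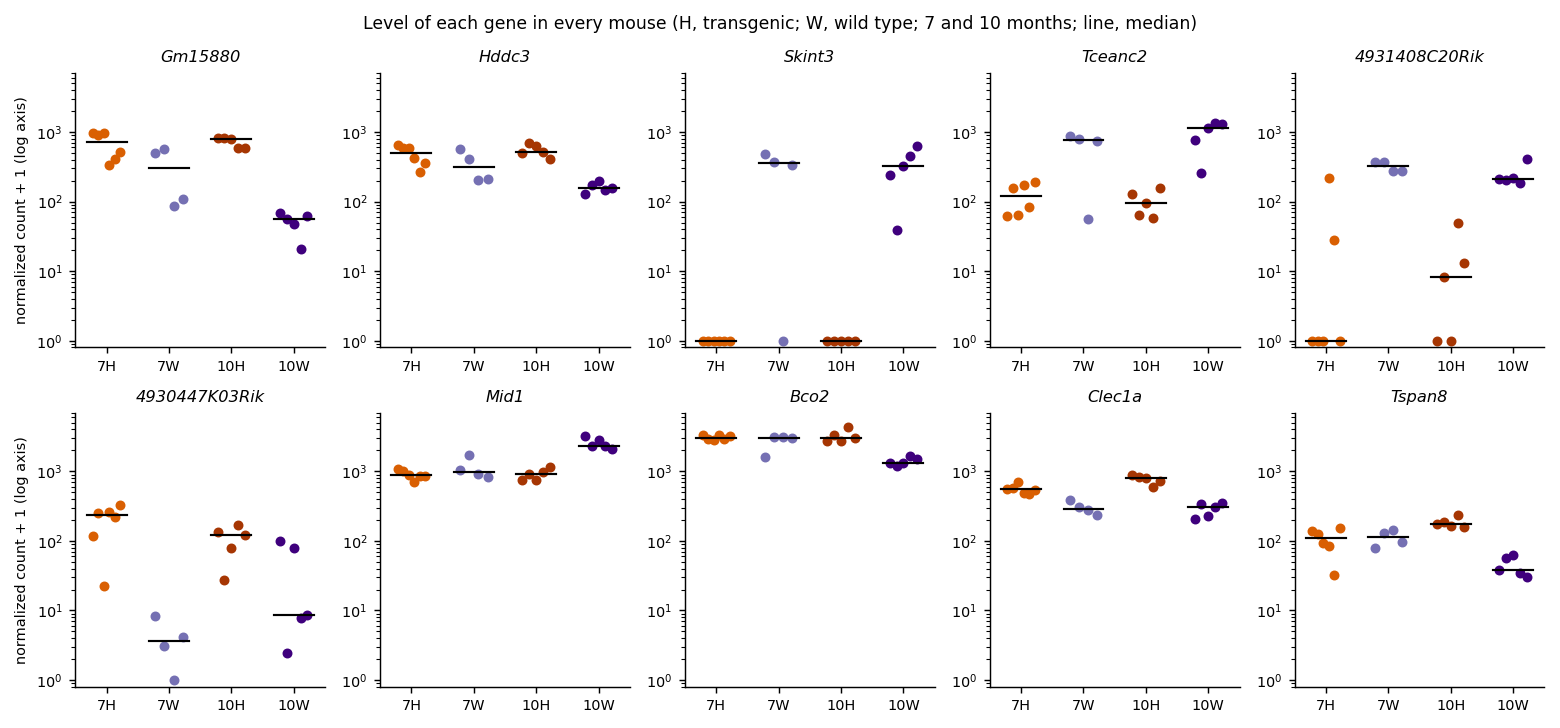
Normalized count plus 1 of each of the 10 genes on a log axis, with 1 point per mouse and a line at the median of each group (7H and 10H, mThy1-α-synuclein; 7W and 10W, wild type). Skint3 lies at 0 reads in every mThy1-α-synuclein mouse and in 1 wild-type mouse at 7 months, and Mid1, Bco2 and Tspan8 overlap between genotypes at 7 months and separate at 10 months.

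Skint3 and Tceanc2, both on chromosome 4, were lower in mThy1-α-synuclein mice, and the same wild-type mice departed from their group in both. Skint3 (plus strand, 112232245 to 112300468, mm10 as for all gene positions here) lies 5.05 Mb from Tceanc2 (minus strand, 107134155 to 107179116). Skint3 had 0 reads in all 6 7H and all 5 10H mice. Among 7W mice it had 478, 372, 0 and 332 normalized counts, and among 10W mice 242, 38.0, 319, 445 and 631. Wild-type mouse 3 at 7 months was thus at the level of the mThy1-α-synuclein mice, and wild-type mouse 2 at 10 months lay between the genotypes. With a floor of 3 reads in each library at 0, which was 2.04 to 3.64 normalized counts in 7H mice, the wild-type mean was at least 100.2-fold higher at 7 months and at least 118-fold higher at 10 months. The floor covers counting error only.

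Tceanc2 was low but not absent in mThy1-α-synuclein mice. In 7H it ranged from 61.6 to 193 with a median of 119.7, and in 7W it was 885, 785, 54.3 and 750.3. In 10H it was 126, 63.0, 93.1, 57.5 and 154, and in 10W 769, 256, 1149, 1340 and 1316. Wild-type mouse 3 at 7 months was again below every 7H mouse, and wild-type mouse 2 at 10 months was again the lowest of its group and nearest to 10H. On the log2(value + 1) scale the genotype difference was -1.90 at 7 months (SD 0.75 in 7H and 1.93 in 7W) and -3.16 at 10 months (SD 0.61 in 10H and 1.00 in 10W). Without wild-type mouse 3, the 7-month difference was -2.87, and both Skint3 and Tceanc2 then separated the genotypes at 7 months. Over the 20 mice, with each age centred on its mean, Skint3 and Tceanc2 correlated with r = 0.94. With each group centred on its mean, so that the genotype difference drops out, r was 0.87. As Skint3 was at 0 in every mThy1-α-synuclein mouse, this r draws its covariation from the wild-type mice only. Wild-type mouse 3 at 7 months lay farthest from its group mean in both genes and so weighs most in this r. The spread of Skint3 was widest in 7W mice (SD 4.31 on the log2 scale, against 1.56 in 10W), where mouse 3 was at 0. This is a description of mice that share their libraries and, within an age, their normalization.

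Of the 9 exon blocks of Tceanc2, 233 bases are shared with Tmem59 on the opposite strand, which is 3.24% of its exon bases. Gm12802, also on the opposite strand and without a row in the normalized matrix, shares 1293 bases (18.0%) with Tceanc2. Tmem59 itself differed by 0.21 (adjusted p = 0.159) at 7 months and by -0.08 (adjusted p = 0.54) at 10 months on the log2 scale in limma's moderated test. Whether the counting used strand is not stated, so reads of such shared bases cannot be told apart.

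Gm15880 and Hddc3, 0.285 Mb apart on chromosome 7, were higher in mThy1-α-synuclein mice. Gm15880 (plus strand, 80636017 to 80644384) had 494, 573, 86.2 and 108 normalized counts in 7W mice and ranged from 330.5 to 981 (median 707) in 7H mice. The 7H mice split, with 904 to 981 in mice 1 to 3 and 330.5 to 510.2 in mice 4 to 6. Wild-type mice 1 and 2 at 7 months lay within the 7H range, well above wild-type mice 3 and 4. In 10H mice Gm15880 was at 828, 832, 789, 579.6 and 584, and in 10W mice at 66.7, 54.9, 47.1, 20.2 and 60.8, with no overlap. Its log2 difference was 1.46 at 7 months (SD 0.69 in 7H and 1.43 in 7W) and 3.91 at 10 months (SD 0.27 in 10H and 0.68 in 10W), which is 15.1-fold.

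Hddc3 (plus strand, 80343104 to 80350547) followed the same mice with a smaller span. It was at 568, 411, 205 and 209.6 in 7W mice and at 267 to 656 (median 497) in 7H mice. Wild-type mice 1 and 2 were again the high pair of their group. In 10H mice it was at 506, 705, 634, 518 and 404, and in 10W mice at 128, 174, 197, 147 and 156. The genotype difference (log2) was 0.52 at 7 months (SD 0.51 in 7H and 0.73 in 7W) and 1.77 at 10 months (SD 0.31 in 10H and 0.24 in 10W). Gm15880 and Hddc3 correlated with r = 0.94 over 20 mice centred by age and with r = 0.76 centred by group. Gm15880 shares no exon base with Crtc3, whose log2 difference was 0.16 (limma adjusted p = 0.415) at 7 months and -0.12 (limma adjusted p = 0.53) at 10 months. Hddc3 shares 427 exon bases with Man2a2 on the opposite strand, and Man2a2 differed by -0.24 (limma adjusted p = 0.145) and 0.03 (limma adjusted p = 0.89). Hddc3 also shares 2454 exon bases, 65.0% of its own, with Gm18310 on the opposite strand, which has no row in the normalized matrix. Without the strand setting of the counts, reads of these shared bases cannot be told apart.

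**Figure D2:**
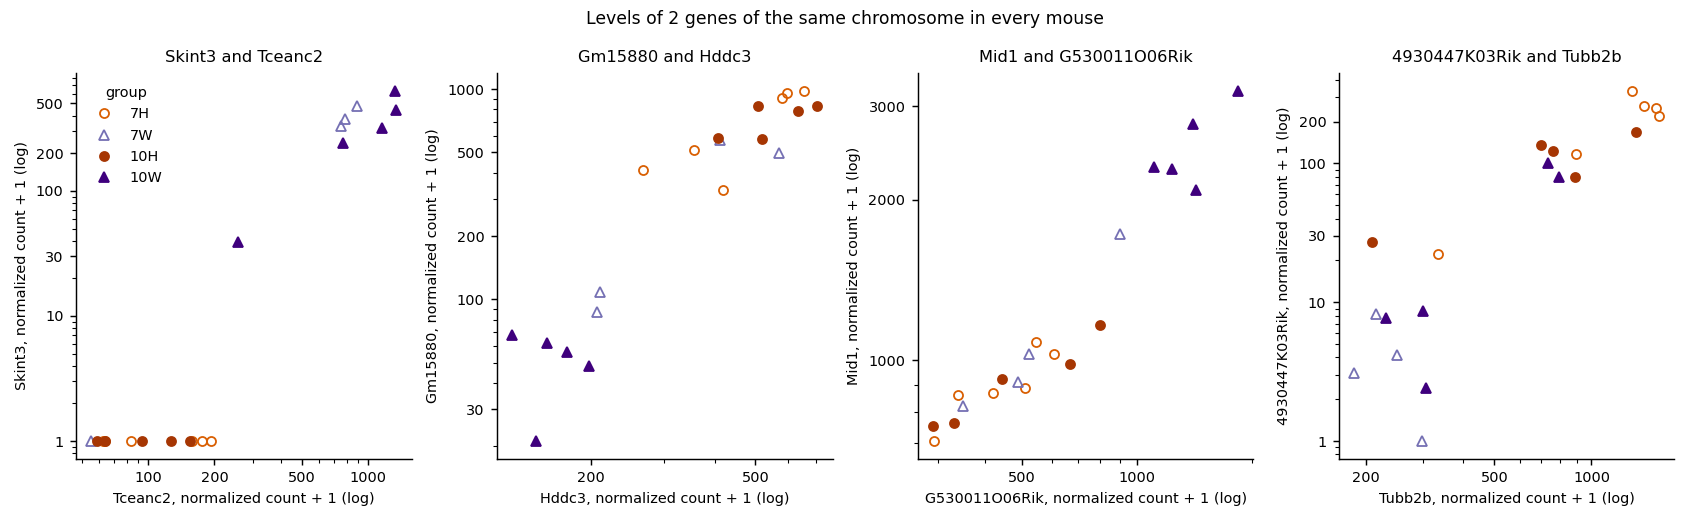
Normalized count plus 1 of 4 pairs of genes on the same chromosome, both axes logarithmic, with 1 point per mouse (circles, mThy1-α-synuclein; triangles, wild type; open, 7 months; filled, 10 months). The wild-type mouse at 0 Skint3 reads is also the lowest for Tceanc2, the pair of 7-month wild-type mice high for Gm15880 is high for Hddc3, and the pair of 10-month wild-type mice high for 4930447K03Rik is high for Tubb2b.

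4931408C20Rik (chromosome 1, minus strand, 26681814 to 26687460) was lower in mThy1-α-synuclein mice and the only member that met both conditions in both age groups. In 7W mice it had 374, 367, 275 and 272 normalized counts, and in 10W mice 213, 204, 216, 184 and 405. In 7H mice it was at 0 reads in mice 1, 2, 3 and 6, at 27.4 in mouse 5 and at 216 in mouse 4. In 10H mice it was at 0, 7.18, 0, 48.7 and 12.0. Mouse 4 of 7H therefore came close to the wild-type range, which began at 272. The log2 difference was -6.22 at 7 months (SD 3.38 in 7H and 0.25 in 7W) and -5.40 at 10 months (SD 2.45 in 10H and 0.45 in 10W). These sizes depend on the pseudocount, with -6.89 and -5.83 at a pseudocount of 0.5 and -4.66 and -4.28 at 5. No tested gene lies within 1 Mb of 4931408C20Rik.

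4930447K03Rik (chromosome 13, minus strand, 34084155 to 34113272) was higher in mThy1-α-synuclein mice and nearly absent from 7W mice. The 7W mice had 7.19, 2.08, 0 and 3.19 normalized counts, from 8, 2, 0 and 3 reads. The 7H mice ranged from 21.1 to 332 (median 234), with mouse 3 at 21.1 and the next mouse at 117. In 10H mice the level was 134, 26.3, 79.2, 168 and 121, and in 10W mice 99.5, 1.41, 79.2, 6.72 and 7.61. Wild-type mice 1 and 3 at 10 months thus lay within the mThy1-α-synuclein range, and mouse 2 of 10H lay between the low and the high mice. On the log2 scale the genotypes differed by 5.57 at 7 months (SD 1.45 in 7H and 1.27 in 7W) and 2.44 at 10 months (SD 1.04 in 10H and 2.33 in 10W). At pseudocounts of 0.5 and 5 the difference was 5.94 and 4.36 at 7 months. 4930447K03Rik shares 100 exon bases, 9.68% of its own, with Gm47065 on the same strand, which has no row in the normalized matrix.

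Mid1 and Bco2 separated the genotypes at 10 months, and at 7 months only single wild-type mice moved. Mid1 (chromosome X, plus strand, 169685199 to 170005736) reaches the border of the pseudoautosomal region, which the X and Y chromosomes share. It had 1027, 1727, 908 and 818 normalized counts in 7W mice and 704 to 1083 (median 876) in 7H mice. In 10H mice it was at 762, 919.9, 752, 983 and 1165, and in 10W mice at 3207, 2302, 2777, 2290.2 and 2090.1. Wild-type mouse 2 at 7 months lay above all 7H mice and, with the ages normalized separately, below all 10W mice. Mid1 differed between genotypes by -0.26 (SD 0.22 in 7H and 0.48 in 7W) and -1.47 (SD 0.26 in 10H and 0.25 in 10W) on the log2 scale at 7 and 10 months. The labels place the transgene on the same chromosome, and its position on it was not used here.

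Mid1 shares 951 exon bases, 14.2% of its own, with G530011O06Rik, a transcript annotated on the opposite strand. The 2 followed each other with r = 0.95 centred by age and r = 0.88 centred by group, the highest of all genes for Mid1 both ways. Without the strand setting of the counts, their reads cannot be told apart.

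Bco2 (chromosome 9, minus strand, 50533087 to 50555181) was lower in 1 of the 4 7W mice and in all 5 10W mice than in the other mice. In 7H mice it ranged from 2863 to 3287 (median 3059). In 7W mice it was at 1623, 3086, 3102 and 3035, so that mouse 1 alone lay low. In 10H mice it was at 2747, 3304, 2765, 4308 and 2966, and in 10W mice at 1308, 1190.4, 1313, 1679 and 1516. The low 7W mouse lay within the 10W range, although the ages were normalized separately. The log2 difference was 0.23 at 7 months (SD 0.09 in 7H and 0.46 in 7W) and 1.19 at 10 months (SD 0.27 in 10H and 0.20 in 10W). Without wild-type mouse 1, the 7-month difference was near 0 and had the opposite sign.

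Clec1a and Tspan8 are the members of the cell surface. Clec1a (chromosome 6, minus strand, 129424772 to 129452000) was higher in mThy1-α-synuclein mice in both age groups. It was at 386, 307, 274 and 235 in 7W mice and at 469 to 692 (median 549.9) in 7H mice. In 10H mice it was at 872, 832, 794, 589 and 722, and in 10W mice at 209, 340.5, 227, 304 and 345. The groups did not overlap, and no mouse lay beyond the midpoint of the medians. The log2 difference was 0.89 (SD 0.20 in 7H and 0.30 in 7W) and 1.43 (SD 0.22 in 10H and 0.34 in 10W), a graded difference of 1.85-fold and 2.70-fold rather than an all-or-none one. Clec1a is known from endothelial and myeloid cells. The summed level of 7 endothelial markers was lower in 7H (3085 to 4521) than in 7W mice (4784 to 6013), with 2 of 7 markers (Cldn5 and Pecam1) lower and none higher in limma's test. It overlapped at 10 months (3628 to 7263 in 10H and 4529 to 7641 in 10W), with no marker past the threshold in limma, edgeR or DESeq2 and 0 at an unadjusted p under 0.05.

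Tspan8 (chromosome 10, plus strand, 115816832 to 115849893) separated the genotypes at 10 months. In 10H mice it was at 175, 188, 160.5, 238 and 157, and in 10W mice at 37.1, 54.9, 62.2, 33.6 and 29.0. At 7 months it was at 78.2, 129, 144 and 95.8 in 7W mice and from 31.5 to 154 (median 109) in 7H mice, with the 7W mice inside the 7H range. The log2 difference was -0.22 at 7 months (SD 0.83 in 7H and 0.40 in 7W) and 2.10 at 10 months (SD 0.24 in 10H and 0.46 in 10W).

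To show which mice broke the patterns, each mouse was placed on a scale on which the wild-type median of a gene and age is 0 and the mThy1-α-synuclein median is 1, in log2 units. A mouse broke a pattern where it lay past 0.5 on the side of the other genotype. Only genes and ages with medians at least 1 log2 unit apart were counted, which were 5 genes at 7 months and 10 at 10 months. At 7 months, 8 of 50 placements broke the pattern, in 6 of 10 mice, and at 10 months 5 of 100, in 5 of 10 mice. These counts are a description. Medians include the mice they place, so that a group split evenly has a median between its parts.

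The breaks fell differently on different chromosomes. Wild-type mouse 3 at 7 months broke both chromosome 4 genes and no other gene counted at that age, and wild-type mice 1 and 2 broke Gm15880. Mouse 4 of 7H broke Gm15880 and 4931408C20Rik, mouse 5 of 7H 4931408C20Rik, and mouse 3 of 7H 4930447K03Rik. At 10 months, wild-type mice 1 and 3 and mThy1-α-synuclein mouse 2 broke 4930447K03Rik, wild-type mouse 2 broke Tceanc2, and mThy1-α-synuclein mouse 4 broke 4931408C20Rik. No mouse broke every gene, and every library kept its label's side for Thy1. Between members on different chromosomes, r centred by group ranged from -0.60 to 0.57 over 43 pairs with a median of 0.06, beside 0.87 and 0.76 for the pairs on chromosomes 4 and 7. Every r with Skint3 centred by group, the 0.87 included, draws its covariation from the wild-type mice only. The 0.87 leans most on wild-type mouse 3 at 7 months. Among all genes, however, some on other chromosomes followed a member at least as closely. Centred by group, Zfp599 on chromosome 9 had r = 0.90 with Skint3, and Car9 on chromosome 4 had r = 0.84 with Gm15880 and 0.79 with Hddc3. The partner gene ranked 1 for Tceanc2, 2 for Skint3 and 4 for both Gm15880 and Hddc3.

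**Figure D3:**
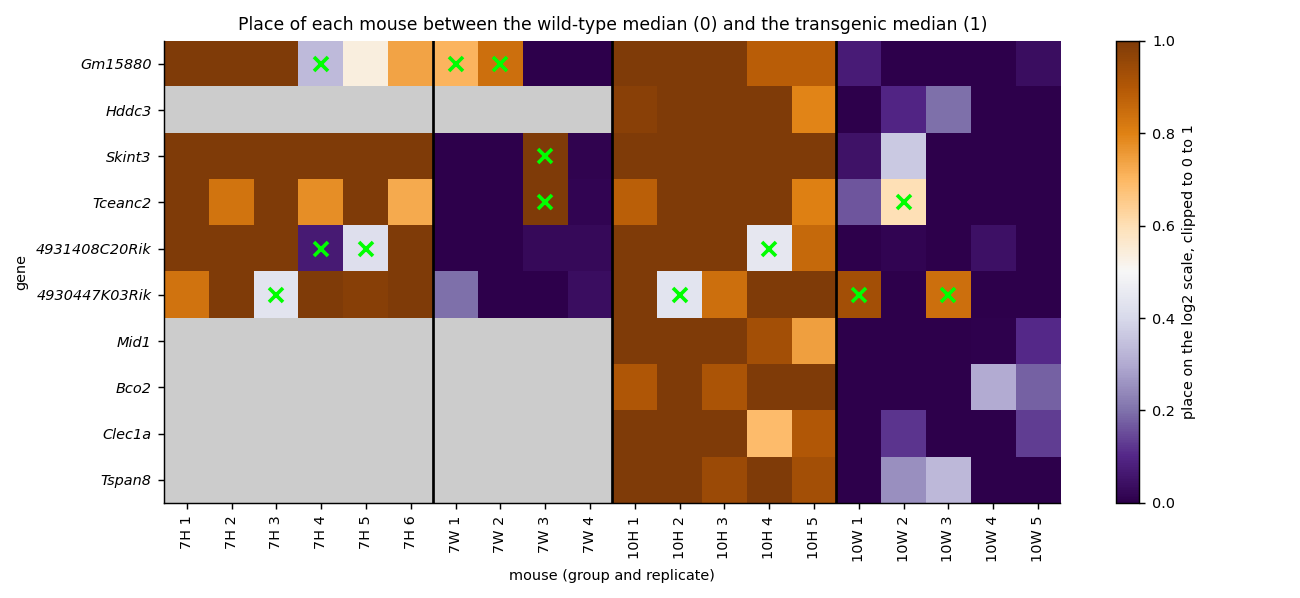
Place of every mouse (columns) between the wild-type median (0, purple) and the mThy1-α-synuclein median (1, orange) for each gene (rows), on the log2 scale clipped to 0 to 1. Green crosses mark the 13 placements past 0.5 on the other genotype's side, and grey marks genes whose medians at that age lie under 1 log2 unit apart.

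The genes around the members were not used to choose them and could be tested. An exception is a neighbour that shares exon bases with a member, since the 2 may share reads. Of those that passed, this holds for G530011O06Rik, which overlaps Mid1 and is counted below at 10 months. Its result cannot be taken as separate from that of Mid1. Neighbours were tested genes, members left out, within 1 Mb of a member. In limma's moderated test, 10 of 136 neighbours (7.35%) passed an adjusted p of 0.05 at 7 months, of which 4 were higher and 6 lower in the transgenic mice, and over all genes the share was 4.93%. At 10 months, 16 of 136 (11.8%) passed, 7 higher and 9 lower, against 7.67% of all genes. In the same direction at both ages, 2 of 136 (1.47%) passed, against 0.489% of all genes. The neighbour count at 7 months fell most without wild-type mouse 1, when 1 neighbour passed. It fell to 5 or 6 without wild-type mouse 2 or 4 or mThy1-α-synuclein mouse 6. Over all genes the count fell in these fits too, from 684 to 280 without wild-type mouse 1 and to between 443 and 578 without the others. At 10 months the neighbour count fell to between 8 and 10 without mThy1-α-synuclein mouse 1, 2 or 5 or wild-type mouse 1, 2 or 5. The count over all genes in those fits fell from 1045 to between 497 and 736. The p-values measure the spread between mice of a group within 1 age.

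The 2 neighbours past the threshold at both ages were Homer2 near Gm15880 and Klrb1c near Clec1a. Homer2, a scaffold protein of glutamatergic synapses, lies 956 kb from Gm15880 and was lower in mThy1-α-synuclein mice, with 14.7 ± 6.88 (SD, n = 6) against 48.3 ± 17.0 (n = 4) normalized counts at 7 months (log2 difference -1.69 ± 0.43 (SE), limma adjusted p = 0.0337). At 10 months it was at 19.5 ± 5.74 against 49.1 ± 11.7 (n = 5 each, log2 difference -1.32 ± 0.33 (SE), limma adjusted p = 0.029). Its direction is opposite to that of Gm15880 and Hddc3. Homer2 passed in 7 of 16 alternatives at 7 months and in 10 of 16 at 10 months. Markers of several other cell types moved with it at 7 months. The summed level of the neuronal markers was 315 to 631 in 7H and 723 to 1510 in 7W mice, and 6 of 10 were lower. The oligodendrocyte markers were at 7845 to 10167 against 12702 to 18093, and 3 of 6 were lower. Of the astrocyte markers 3 of 8 were lower (Gja1, Aldoc and S100b) and 1 higher (Slc1a3), and 2 of 7 endothelial markers were lower. The astrocyte sums overlapped (9697 to 12457 and 9212 to 11888). They consisted mostly of Slc1a3, with 8882 to 11711 in 7H and 7422 to 8860 in 7W mice, and so say little about the lower markers. At 10 months the neuronal sums overlapped (381 to 692 in 10H and 299 to 609.7 in 10W), and none of 8 tested passed in limma, edgeR or DESeq2, with 1 at an unadjusted p under 0.05.

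Klrb1c, a receptor of natural killer cells (NK1.1), was at 92.5 ± 19.7 against 221 ± 67.6 at 7 months (log2 difference -1.22 ± 0.24 (SE), limma adjusted p = 0.00829) and at 88.2 ± 24.0 against 159.9 ± 39.4 at 10 months (log2 difference -0.87 ± 0.24 (SE), limma adjusted p = 0.0414). It passed in 15 of 16 alternatives at 7 months and in 8 of 16 at 10 months. The region around Clec1a holds many natural killer receptor genes, and those that passed were all lower in mThy1-α-synuclein mice, opposite to Clec1a. They were Klrb1c, Klrk1 and Klra9 at 7 months and Klrb1c, Klre1 and Klra17 at 10 months, when the co-chaperone gene Fkbp4 was lower too. Klrd1 and Klrb1b of the C-type lectin cluster passed at neither age. Some markers of lymphocytes were lower too. The summed level of the lymphocyte markers was 290.2 to 817 in 7H and 1143 to 2167 in 7W mice, and 324 to 630.3 in 10H and 933 to 2109 in 10W mice. Much of these sums was Gzma, with 814 to 1674 in 7W and 449.5 to 1489 in 10W mice. Of 5 tested, Gzma was lower at both ages and Cd3d and Nkg7 at 10 months. The other 2, Ms4a1 and Cd79a, passed at neither age. None of the 7 lymphocyte, 7 endothelial and 10 neuronal markers was at 0 in every mouse of an age. The part of these cell types in the results was not tested, and fewer cells of a type and less RNA per cell cannot be told apart in bulk samples.

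Closest to 4930447K03Rik lie the tubulin genes Tubb2a, 6.15 kb to one side, and Tubb2b, 13.5 kb to the other. Both were higher in 7H than in 7W mice. Tubb2b was at 897, 1582, 332, 1458, 1620.2 and 1337 in the 6 7H mice and at 214, 183, 298 and 249 in the 7W mice (log2 difference 2.20 ± 0.45 (SE), limma adjusted p = 0.0277). The lowest 7H mouse was mouse 3, which was also the low mouse for 4930447K03Rik. At 10 months it was at 696, 208, 888, 1375 and 758 in 10H and at 734, 307, 790, 229.8 and 299 in 10W mice (log2 difference 0.69 ± 0.56 (SE), limma adjusted p = 0.507). Here too the mice that broke the pattern were shared, with wild-type mice 1 and 3 high and mThy1-α-synuclein mouse 2 low. Tubb2b and Tubb2a were the genes most like 4930447K03Rik among all genes centred by age, with r = 0.89 and 0.86. Centred by group they came after Tada2b and Pygm on other chromosomes (both r = 0.78), with r = 0.76 and 0.74. At 7 months Tubb2b passed in 9 and Tubb2a in 8 of 16 alternatives.

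Next to Mid1, Erdr1 (4.79 kb away) and the overlapping G530011O06Rik were lower in 10H than in 10W mice, in the direction of Mid1. Erdr1, a pseudoautosomal gene, was at 137 ± 52.9 and 352 ± 86.1 (log2 difference -1.42 ± 0.27 (SE), limma adjusted p = 0.00862). G530011O06Rik was at 505 ± 220.2 and 1403 ± 278 (log2 difference -1.56 ± 0.28 (SE), limma adjusted p = 0.0113). At 7 months the high wild-type mouse for Mid1, mouse 2, was also the highest 7W mouse for both, with 297 normalized counts of Erdr1 and 899 of G530011O06Rik. Over the groups, Erdr1 differed at 7 months with the opposite sign, at 144 ± 87.4 in 7H and 85.2 ± 142 in 7W (log2 difference 2.65 ± 1.37 (SE), limma adjusted p = 0.31), and the mice overlapped. G530011O06Rik was at 450.4 ± 121 and 563 ± 236 (log2 difference -0.28 ± 0.27 (SE), limma adjusted p = 0.58).

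Other neighbours also passed the threshold. Around Hddc3 and Gm15880, Ngrn and Furin were higher at 10 months, with Furin, a proprotein convertase 38.0 kb from Hddc3, at 0.54 ± 0.09 (SE) on the log2 scale (limma adjusted p = 0.00489). Sec11a and Pde8a were lower at 10 months and Ap3b2, an adaptor subunit of neurons, at 7 months, by a log2 difference of -1.95 ± 0.47 (SE, limma adjusted p = 0.0265). Around Bco2, Dlat, 1110032A03Rik, Ppp2r1b and Sik2 were higher at 10 months and Alg9 at 7 months, and near Tspan8, Tbc1d15 was higher at 10 months. Around the chromosome 4 members, none of 21 tested neighbours passed in limma or edgeR at either age, 19 near Tceanc2 and 2 near Skint3. DESeq2 called 2 at 7 months and 1 at 10 months, and 5 and 1 had an unadjusted limma p under 0.05.

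**Figure D4:**
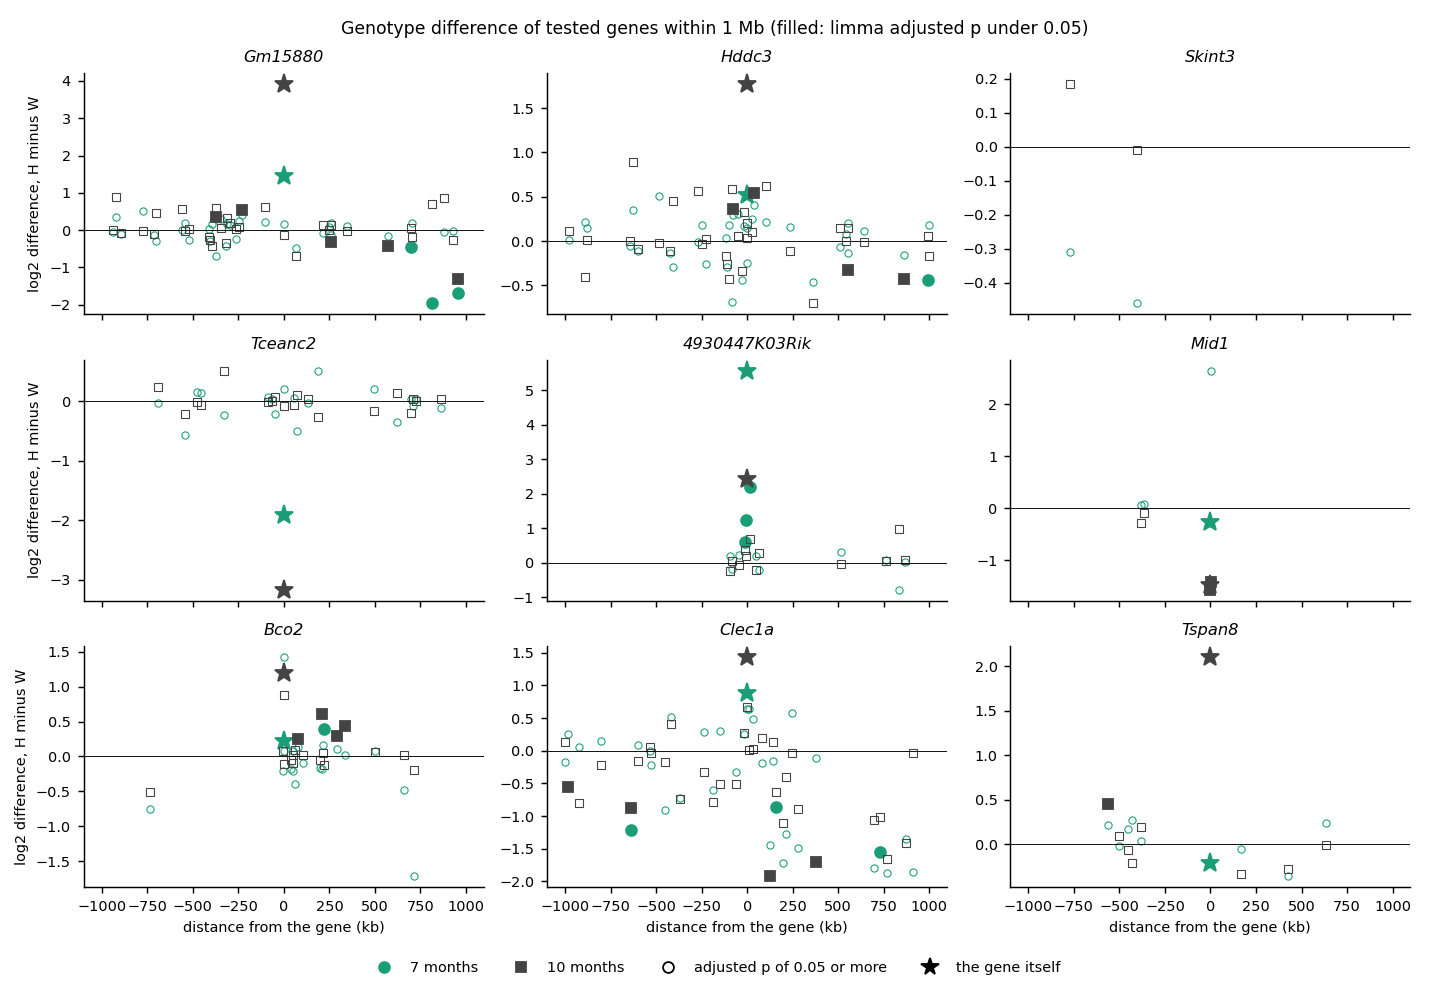
Log2 difference (mThy1-α-synuclein minus wild type) of tested genes against their distance in kb from each of 9 members, at 7 months (circles) and 10 months (squares), with the member as a star and filled symbols for a limma adjusted p under 0.05. The scale of the vertical axis differs between panels, Skint3 has no star because its fold is a bound only, and near Clec1a all filled symbols lie below 0.

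To ask which genes followed a member from mouse to mouse, r was computed against Skint3 and the 13484 genes tested at both ages, over the 20 mice, centred by age. These values are a description, since the mice share libraries and the genotype difference enters r. Skint3 and Tceanc2 were each other's best match, as were Gm15880 and Hddc3, and the next for both chromosome 4 members was Ptplad2 (r = 0.88 and 0.83), which lies on chromosome 4 too, 23.8 and 18.7 Mb away. Ptplad2 had 1883, 1898, 1094 and 1817 normalized counts in 7W mice, so that mouse 3 was again the low one. Its lowest 10W mouse was mouse 3 (1038), not mouse 2 (1327). Chrna7, the α7 nicotinic receptor gene on chromosome 7, followed Gm15880 (r = 0.92) and Hddc3 (r = 0.86) from 17.4 and 17.1 Mb away. It had 12.6, 16.6, 0 and 0 in 7W mice and 0 in all 10W mice, with 14.1 to 48.2 in 10H mice.

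Bco2 was followed by Nxpe4 (r = 0.91), 2.13 Mb away on chromosome 9, which had 28.8, 193, 162 and 245 in 7W mice and 6.60 to 16.6 in 10W mice, against 141 to 279.6 in 10H mice. The low 7W mouse was mouse 1 for both genes. The 7H mice differed, since Nxpe4 fell to 45.9 in mouse 1 while Bco2 did not. Brf1 and Gclc came next for Bco2 (r = 0.91 and 0.85), Agap2, Dusp5 and Fam103a1 were nearest to 4931408C20Rik (r = 0.88, 0.87 and 0.85), and Thy1, Rbfox1 and Tubgcp5 nearest to Clec1a (r = 0.94, 0.92 and 0.89). Rasa4, Ift140 and Nmnat3 were nearest to Tspan8, each with r = 0.85. Of the 10 nearest genes, 2 lay within 5 Mb on the same chromosome for Gm15880, Hddc3 and 4930447K03Rik, 1 for Mid1 and Bco2, and 0 for the other 5 members, Skint3 and Tceanc2 lying just farther apart than that. Genes within 5 Mb made up 0.0670% (4931408C20Rik) to 0.759% (Clec1a) of all genes.

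The families of the members were counted beside the share of all genes that passed, 4.93% at 7 months and 7.67% at 10 months. Of the 11 Skint genes, 10 were at 0 reads in every mouse at 7 months and 9 at 10 months, where 2 reads of Skint5 in wild-type mouse 5 were the exception beside Skint3. Of 22 other tetraspanins tested, 1 was higher at 7 months and 5 passed at 10 months, 3 higher and 2 lower, with Tspan18 higher at both ages (log2 difference 0.49 ± 0.12 and 0.66 ± 0.16 (SE), limma adjusted p = 0.0318 and 0.0314). Of 6 others in the elongation factor S-II family, Tcea1, the general factor, was higher at both ages (0.40 ± 0.08 and 0.33 ± 0.07 (SE), limma adjusted p = 0.00808 and 0.0128) and Tceanc at 10 months, opposite to Tceanc2. Of the carotenoid and retinoid genes other than Bco2, 1 of 8 tested at 7 months (Dhrs3, a retinal reductase) was higher, and 0 of 10 passed at 10 months in limma or edgeR (1 in DESeq2, 3 at an unadjusted p under 0.05). Among 8 partners and relatives of Mid1, Trim9, which neurons express, was lower at 7 months, and none passed at 10 months in limma, edgeR or DESeq2 (1 at an unadjusted p under 0.05). Beside Hddc3, 5 genes listed as hydrolases or for NADPH turnover were tested. Of these, none passed at 7 months in limma, edgeR or DESeq2 (1 at an unadjusted p under 0.05). Samhd1 and Nadk were lower at 10 months. Of 12 others in the C-type lectin cluster, Klrk1 and Klrb1c were lower at 7 months and Klrb1c at 10 months. The medians of these lists other than Skint, members included, lay between -0.23 and 0.14 at 7 months and between -0.03 and 0.18 at 10 months. The median log2 difference over all genes was 0.0009 at 7 months and -0.0026 at 10 months.

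A list of 14 genes known to differ between C57BL/6 and DBA/2 mice was read beside the members. Of 11 tested at 7 months 3 passed, all higher in mThy1-α-synuclein mice and Nnt and Apobec3 among them, against 4.93% of all genes. Of 10 tested at 10 months 1 passed (Nnt), against 7.67% of all genes. Apobec3 differed by 0.28 ± 0.07 (SE) at 7 months and by -0.002 ± 0.08 (SE) at 10 months on the log2 scale (limma adjusted p = 0.0402 and 0.991). The median log2 difference of the list was 0.21 and 0.01. Nnt, the mitochondrial nicotinamide nucleotide transhydrogenase, carries a deletion of exons in C57BL/6J. It had 3413, 3814, 4264 and 3822 normalized counts in 7W mice against 5126 to 6014 in 7H mice (log2 difference 0.55 ± 0.08 (SE), limma adjusted p = 0.00183). In 10W mice it was at 1646, 3307, 3232, 2078 and 1834, against 5048 to 5613 in 10H mice (log2 difference 1.18 ± 0.19 (SE), limma adjusted p = 0.00629). Klrd1, which DBA/2J mice lack, was present in all 20 mice at 249 to 675 and differed by -0.16 ± 0.17 and 0.14 ± 0.18 (SE) on the log2 scale (limma adjusted p = 0.63 and 0.694).

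Among all genes tested, 88 showed no overlap and an at least 4-fold difference at 7 months, of which the transgenic mice had 12 at a higher and 76 at a lower level. At 10 months there were 29, 18 higher and 11 lower. Those at both ages and in the same direction were 4931408C20Rik, Thy1, Gnb4 and Pdzrn4. Gnb4, a G protein β subunit on chromosome 3, had 13.3 to 109 normalized counts in 7H and 494 to 1248 in 7W mice, and 15.1 to 34.7 in 10H and 512 to 979 in 10W mice. At 10 months, 7 of the 29 genes (24.1%) had another such gene within 1 Mb, against 3.50% of all tested genes that had 1 within 1 Mb. The 7 were Serpina1a, Serpina1b and Serpina1c, related genes on chromosome 12, Cetn4 and Fgf2 on chromosome 3, and Thy1 and Cd3d on chromosome 9. Thy1 was higher and Cd3d lower in the transgenic mice. The share therefore rests on few places, and no member is among the 7. At 7 months it was 8 of 88 (9.09%) against 9.92%.

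**Figure D5:**
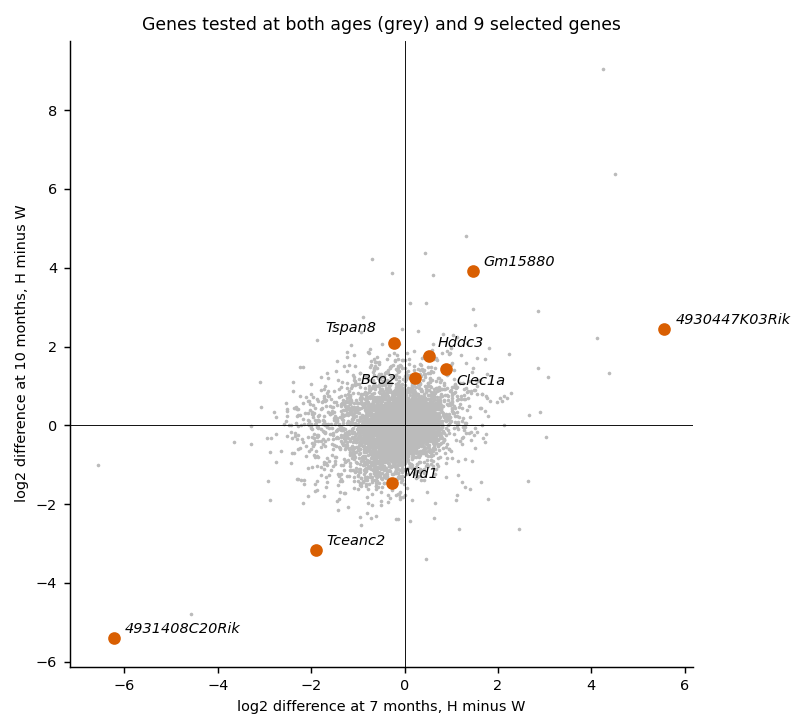
Log2 difference (mThy1-α-synuclein minus wild type) at 7 months against that at 10 months for the 13484 genes tested at both ages (grey) and 9 of the selected genes (orange), without Skint3, which was not tested at 7 months. Mid1, Bco2 and Tspan8 lie near 0 at 7 months, and 4931408C20Rik and 4930447K03Rik lie farthest from it.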

How the data were processed

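The members and gene lists were chosen with earlier results of these data known. Per the methods and the labels, the authors trimmed reads with Trim Galore 0.6.7, mapped them to mm10 with HISAT2 2.2.1, counted them with featureCounts and normalized them with DESeq2 1.44.0. The annotation, strand setting and treatment of reads with several matches are not given in the sources used here. The signal values as deposited by the authors are counts divided by 1 size factor per mouse, recomputed over the 10 mice of each age. Dividing it out gave whole reads.

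Genotypes were compared within each age with limma 3.58.1 on log2(value + 1), with trend and robust estimation (R 4.3.3). A gene was tested where at least 4 mice (7 months) or 5 mice (10 months) reached 10, and p-values were adjusted by Benjamini-Hochberg at 0.05. Alternatives were edgeR 4.0.16, DESeq2 1.42.0, pseudocounts, no filter, other windows, a replicate block and leaving out each mouse. Scripts were tested on simulated data. Positions are from GENCODE and RefSeq, which placed 99.4% of genes. Genes were named by a written rule: members, neighbours past the threshold at both ages, the genes most like a member, listed genes past the threshold, checks, and genes on-off at both ages. Other neighbours were named after their values were seen. Methylation data were not used here. A few genes are left out of the text.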

Additional observations from a re-analysis of the deposited data

Results flagged for a closer look

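In 38 combinations of a member and a group, the gap between an extreme mouse and its nearest neighbour was divided by the range of the group. This used the log2(value + 1) scale, with the limit of Dixon's test at 95% as a mark. The members were chosen from these same values and some follow each other, so no chance rate is read from the marks. The limit marked 4 of these combinations, in 3 mice. Wild-type mouse 3 at 7 months stood apart for Skint3 (0 normalized counts) and for Tceanc2 (54.3), the chromosome 4 pair. Wild-type mouse 1 at 7 months stood apart for Bco2 (1623). Wild-type mouse 5 at 10 months stood apart for 4931408C20Rik (405), on the side away from the mThy1-α-synuclein mice.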

How the results depend on the processing

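Over 234 recomputations of the members' log2 differences, 232 kept their direction and stayed within 1 SD, and 2 turned sign: Bco2 at 7 months without wild-type mouse 1 (-0.0029, with a range of -0.0029 to 0.31 over the mice left out) and Tspan8 at 7 months without mThy1-α-synuclein mouse 5 (0.0902, range -0.37 to 0.0902). Leaving out 1 mouse gave 3 to 5 members without overlap at 7 months (5 without wild-type mouse 3) and 9 at 10 months. Genes past the threshold numbered 280 to 860 at 7 months and 497 to 1235 at 10 months, their neighbours 1 to 10, 8 to 18 and, at both ages, 0 to 4, and on-off genes 84 to 132, 34 to 56 and, at both ages, 4 to 6. With DESeq2, 1166 and 1698 genes passed, and 20, 26 and 7 neighbours. Without a filter, 1 neighbour passed at both ages, and 52 genes were on-off at 10 months. In a window of 0.5 Mb, 5 of 92 neighbours (5.43%) passed in limma at 7 months and 11 of 92 (12.0%) at 10 months. At both ages 0 of 92 passed there (limma, with 2 in 1 Mb and 7 in 1 Mb by DESeq2). In 5 Mb 21, 46 and 4 passed, 4.73%, 10.4% and 0.907% of those tested. Over all genes the limma shares were 4.93%, 7.67% and, at both ages, 0.489%. On-off genes numbered 13 and 15 at 8-fold, 249, 179 and 17 at 2-fold, and 36 at 7 months with a pseudocount of 5. The replicate numbers of the labels did not pair the mice, since same-numbered mice correlated with r from -0.13 to 0.10. With the replicate block, 414 and 916 genes and 7, 12 and 2 neighbours passed.

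Counting error weighs most on values of a few reads, such as 4930447K03Rik in wild-type mice at 7 months. The library with the fewest reads, 33404096, was wild-type mouse 2 at 10 months, which lay between the genotypes for Skint3 and Tceanc2. The part of depth in the members' values was not tested. The cause of the other shifts was not tested.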
